A study of Arabidopsis thaliana with 8 samples.

Results

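The genes described here are 41 genes of the phenylpropanoid and flavonoid pathway of Arabidopsis thaliana, taken from a table of read counts for 36799 genes by their gene codes. They comprise 8 genes of the early phenylpropanoid steps, 6 of the early flavonoid and flavonol steps, 4 of the late flavonoid steps, 7 that decorate flavonols and anthocyanins, and 16 regulators of the MYB, bHLH and WD40 families. Of the 41 members, 39 had enough reads to be tested among 21614 genes.

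RNA was sequenced from whole seedlings of Col-0 and enap1-1enap2, with 2 biological replicates in each of 4 groups. Col-0 is the wild type. The mutant enap1-1enap2 was obtained by crossing and carries a CRISPR/Cas9 deletion in ENAP1 together with T-DNA insertions in the first exon of ENAP2, both in the Col-0 background, so that loss of one gene cannot be told apart from loss of the other. Seedlings of both genotypes grew for 10 days in 16 h of light and then stood for 4 h on filter paper with ½ MS medium, either alone (Mock) or with 25% PEG8000 (Dehydration), a polymer that withdraws water from the tissue. The study asked whether the plant response to water loss needs ENAP1 and ENAP2, which encode histone binding proteins.

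Phenylpropanoid metabolism starts from phenylalanine. Phenylalanine ammonia-lyase (PAL), cinnamate hydroxylase (C4H) and coumarate:CoA ligase (4CL) convert it to coumaroyl-CoA, which feeds lignin, sinapate esters and flavonoids. Chalcone synthase (CHS) commits it to flavonoids, which flavonol synthase (FLS1) turns into colourless flavonols that screen ultraviolet light, or dihydroflavonol reductase (DFR) into the red and blue anthocyanins. In Arabidopsis seedlings the early enzymes of the flavonol branch are switched on by MYB12, MYB11 and MYB111, whereas the late anthocyanin enzymes need a complex of a MYB protein such as PAP1, a bHLH protein such as TT8 and the WD40 protein TTG1.

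The libraries held between 24007691 and 48279415 counts, and levels are given as CPM (counts divided by the library size times its TMM factor), so that 3 counts were worth 0.0608 to 0.135 CPM. The replicates of Col-0 Mock differed most, with a biological coefficient of variation of 0.139 against 0.045 to 0.0923 in the other groups. ENAP1 was lower in the mutant under mock by 1.83 on the log2 scale and ENAP2 by 1.37. Under dehydration the gaps were -0.98 ± 0.14 and -0.83 ± 0.20, and ENAP1 rose with dehydration in the mutant by 1.44 ± 0.16. Of the 1865 exon bases of ENAP2, 863 overlap a gene on the opposite strand, so reads from them may have been lost. RD29A, RD29B and RAB18, which mark dehydration, were called higher with dehydration in both genotypes and lower in the mutant than in Col-0 under mock. Their interactions were 0.64 ± 0.22 (adjusted p = 0.055) for RD29A, 4.45 ± 0.85 (adjusted p = 0.0025) for RD29B and 2.51 ± 0.19 (adjusted p = 1.9e-06) for RAB18. RD29B measured 43.2 and 4.82 CPM in Col-0 Mock and 1.93 and 2.29 CPM in enap1-1enap2 Mock. The size of its interaction thus depends on Col-0 Mock replicate 1. Of 8 root markers, 8 were called lower with dehydration in Col-0 and 7 in enap1-1enap2. Their summed level was 58.2 to 100.1 CPM in Col-0 Mock, 10.4 to 10.5 CPM in Col-0 Dehydration, 68.8 to 73.1 CPM in enap1-1enap2 Mock and 5.31 to 6.98 CPM in enap1-1enap2 Dehydration, and of these 8 only CASP5 was at 0 in any library (Col-0 Mock 2, Col-0 Dehydration 2 and enap1-1enap2 Dehydration 2). The summed level of 5 photosynthesis genes was 22683 to 28072 CPM in the mock libraries, 19039 to 19564 CPM in Col-0 Dehydration and 13522 to 14797 CPM in enap1-1enap2 Dehydration. RBCS1A and LHCB1.3 make up most of that sum, and of the 5 genes 2 were lower and 1 higher in the mutant under dehydration at an adjusted p under 0.05. The higher one, LHCB2.1, rose with dehydration in the mutant by 1.07 ± 0.092 and had an interaction of 0.73 ± 0.13 (adjusted p = 0.0014). In whole seedlings, fewer cells of a type and less RNA per cell cannot be told apart, and the part of these shifts in the results was not tested.

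The stretches of 150 bases before the annotated starts of 6 members are shown because these genes stand for the patterns described in the results. PAL4, PAP2 and TT8 rose with dehydration in both genotypes, 4CL3 fell in both, CHIL fell in Col-0, and DFR rose in enap1-1enap2. The words searched on both strands were the AC-I element ACCTACC, the AC-II element ACCAACC and the AC-III element ACCTAAC, which MYB proteins bind, the G-box, spelled CACGTG, and the abscisic acid response element, spelled ACGTGTC or with a variant ending as ACGTGGC, which can overlap a G-box. The sequence is that of RefSeq (TAIR10.1) with the starts of the Araport11 annotation, read from 5′ to 3′ on the strand of the gene, and matches on either strand are in capitals.
PAL4, chr3:3203838-3203987, plus strand: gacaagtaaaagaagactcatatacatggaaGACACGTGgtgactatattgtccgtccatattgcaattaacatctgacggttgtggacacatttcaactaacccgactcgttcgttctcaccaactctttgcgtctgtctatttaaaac
PAP2, chr1:24763791-24763940, plus strand: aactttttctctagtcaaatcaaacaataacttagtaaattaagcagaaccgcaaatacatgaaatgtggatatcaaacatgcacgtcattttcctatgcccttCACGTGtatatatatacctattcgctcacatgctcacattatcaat
TT8, chr4:6181731-6181880, plus strand: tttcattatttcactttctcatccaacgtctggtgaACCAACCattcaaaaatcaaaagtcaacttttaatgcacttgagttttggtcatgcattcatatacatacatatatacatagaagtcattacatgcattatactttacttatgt
4CL3, chr1:24171636-24171785, minus strand: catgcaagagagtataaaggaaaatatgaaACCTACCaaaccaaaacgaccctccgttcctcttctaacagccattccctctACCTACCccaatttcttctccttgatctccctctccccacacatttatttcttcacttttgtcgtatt
CHIL, chr5:1563136-1563285, plus strand: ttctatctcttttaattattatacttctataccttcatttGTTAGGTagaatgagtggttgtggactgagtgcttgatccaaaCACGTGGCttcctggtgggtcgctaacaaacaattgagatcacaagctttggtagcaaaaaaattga
DFR, chr5:17166033-17166182, minus strand: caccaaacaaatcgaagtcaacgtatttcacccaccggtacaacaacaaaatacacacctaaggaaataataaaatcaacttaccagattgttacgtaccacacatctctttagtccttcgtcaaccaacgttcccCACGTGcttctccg

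PAL4 and CHIL hold a G-box that overlaps an abscisic acid response element, and the element begins 119 and 66 bases before the start. The G-box of PAL4 begins 117 bases before the start, that of CHIL 67, and the G-box of PAP2 begins 46 bases before the start and that of DFR 14 bases before it. The AC elements of 4CL3 begin 120 and 68 bases before the start, that of TT8 114, and that of CHIL, on the other strand, 110. Over 250 bases before the start, an AC element was found in 10 of the 41 members (24.4%), against 6.15% of all 36630 promoters of this length. A G-box was found in 11 members (26.8%) against 5.49%, and an abscisic acid response element in 6 (14.6%) against 5.42%. Among the 21613 promoters of genes tested, the shares were 6.26% for an AC element, 7.44% for a G-box and 7.3% for an abscisic acid response element. A match is a description of the letters and not a site of binding.

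A gene is called changed, and said to have risen or fallen, where its log2 fold change exceeds 1 in size with an unadjusted p under 0.01 and an adjusted p under 0.05, the thresholds of the methods. The test was the quasi-likelihood test of edgeR, adjusted over the 21614 genes by Benjamini-Hochberg, and values after ± are standard errors. In Col-0, 5 members rose and 13 fell, while 10.0% of all genes tested rose and 11.7% fell. In enap1-1enap2, 10 rose and 10 fell, while 12.6% of all genes rose and 14.1% fell. The median log2 fold change of the 39 members was -0.23 in Col-0 and 0.15 in the mutant, and that of all genes was -0.03 and -0.01. Scaling by the upper quartile lowered the median of all genes by 0.185 in Col-0 and 0.163 in enap1-1enap2, which left 1668 genes higher and 3329 lower in Col-0 in place of 2164 and 2535, and 2168 and 3764 in the mutant in place of 2715 and 3048. With it 8 members rose and 13 fell in enap1-1enap2.

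The difference between these 2 responses, the interaction of genotype and treatment, was called at an adjusted p under 0.05. The response was higher in enap1-1enap2 than in Col-0 for 20 members and lower for 0, while 8.07% of all genes had a higher and 8.76% a lower response. At an unadjusted p under 0.05 there were 23 members, against 6565 of the 21614 genes tested. DESeq2 called 21 members higher and 0 lower, against 1552 and 1988 of all genes. The interactions of the dehydration markers RD29B and RAB18 were higher in enap1-1enap2 as well, and both markers rose in both genotypes. By contrast, CHS, CHI, CHIL, F3'H, FLS1 and 4CL1 among these members were lower with dehydration in both genotypes. For them the higher log2 fold change in the mutant was a smaller decrease. The part of the shift in the dehydration markers in the interaction of the members was not tested. The median of the interaction was 0.46 over the members and 0.01 over all genes. Among the 20 were 5 of the 5 early flavonoid enzymes tested and 7 of the 7 genes of anthocyanin synthesis and transport.

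**Figure D1:**
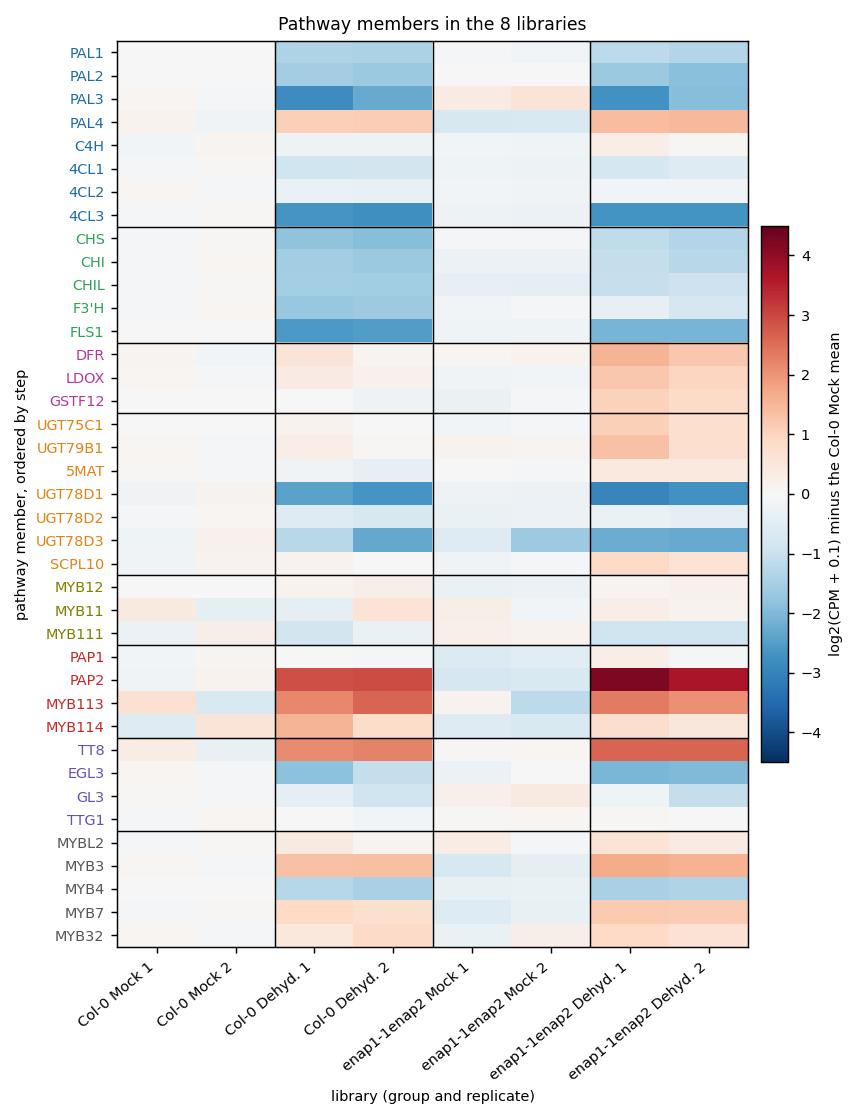
Level of the 39 members tested (rows, ordered and coloured by step) in the 8 libraries (columns), as log2(CPM + 0.1) minus the mean of the 2 Col-0 Mock libraries, red where higher and blue where lower. Most early phenylpropanoid and early flavonoid genes are blue in the 4 dehydration libraries, whereas PAL4, PAP2 and TT8 are red in these 4, and DFR, LDOX and GSTF12 are most red in the 2 enap1-1enap2 Dehydration libraries.

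PAL catalyses the entry step, and its 4 genes did not move together. PAL1 (AT2G37040) measured 698 and 710.0 CPM in Col-0 Mock, 266 and 263 CPM in Col-0 Dehydration, 655 and 643 CPM in enap1-1enap2 Mock and 315 and 285 CPM in enap1-1enap2 Dehydration. The dehydration libraries were the lower ones in both genotypes with no overlap, and PAL1 fell by 1.41 ± 0.087 on the log2 scale in Col-0 (adjusted p = 1.5e-09) and by 1.11 ± 0.086 in enap1-1enap2 (adjusted p = 1.5e-08). PAL2 (AT3G53260) measured 413 and 428 CPM in Col-0 Mock, 142 and 133 CPM in Col-0 Dehydration, 426 and 412 CPM in enap1-1enap2 Mock and 132 and 114 CPM in enap1-1enap2 Dehydration, and fell by 1.61 and 1.77 on the log2 scale. PAL3 (AT5G04230), a gene of low level, measured 16.2 and 14.3 CPM in Col-0 Mock, 2.07 and 3.06 CPM in Col-0 Dehydration, 19.5 and 22.6 CPM in enap1-1enap2 Mock and 2.22 and 4.01 CPM in enap1-1enap2 Dehydration, and fell by 2.57 and 2.78. By contrast, PAL4 (AT3G10340) measured 29.7 and 23.8 CPM in Col-0 Mock, 56.3 and 58.1 CPM in Col-0 Dehydration, 16.1 and 16.3 CPM in enap1-1enap2 Mock and 69.3 and 73.0 CPM in enap1-1enap2 Dehydration. Its 4 dehydration libraries were all above its 4 mock libraries, and it rose by 1.10 ± 0.10 in Col-0 and 2.13 ± 0.11 in enap1-1enap2 on the log2 scale, with an interaction of 1.04 ± 0.15 (adjusted p = 2.5e-04). Without Col-0 Mock replicate 2, the library in which PAL4 was lower of that pair, its change in Col-0 was 0.94 (adjusted p = 3.7e-07), under the fold threshold, as it was with upper quartile scaling (0.91). PAL1 lies on chromosome 2 (15557367-15560755), PAL2 and PAL4 on chromosome 3 (19744018-19747114 and 3203988-3208135) and PAL3 on chromosome 5 (1160569-1163957), in the TAIR10 coordinates of the count table.

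C4H (AT2G30490), the next enzyme, was among the 4 members of highest level per exon length in every group. It measured 475 and 551 CPM in Col-0 Mock, 436 and 438 CPM in Col-0 Dehydration, 469.8 and 458 CPM in enap1-1enap2 Mock and 624 and 530.2 CPM in enap1-1enap2 Dehydration, with the mutant dehydration libraries on either side of the Col-0 Mock replicate 2. Its change was -0.23 ± 0.10 (adjusted p = 0.057) in Col-0 and 0.32 ± 0.10 (adjusted p = 0.011) in enap1-1enap2, below the fold threshold in both, and the interaction was 0.55 ± 0.14 (adjusted p = 0.015). Leaving out enap1-1enap2 Mock replicate 1, enap1-1enap2 Mock replicate 2, Col-0 Dehydration replicate 1 or enap1-1enap2 Dehydration replicate 1 raised that adjusted p to 0.068, 0.088, 0.051 and 0.078.

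The 4CL genes activate the acid to its CoA ester, and 4CL3 is the one tied to flavonoids. 4CL3 (AT1G65060) measured 151 and 161 CPM in Col-0 Mock, 24.5 and 23.2 CPM in Col-0 Dehydration, 135 and 129.5 CPM in enap1-1enap2 Mock and 24.1 and 24.03 CPM in enap1-1enap2 Dehydration. All 4 dehydration libraries lay within 23.2 to 24.5 CPM, and it fell by 2.71 ± 0.086 in Col-0 (adjusted p = 8.6e-13) and by 2.46 ± 0.084 in enap1-1enap2 (adjusted p = 1.4e-12). 4CL1 (AT1G51680), which with 4CL2 serves mainly lignin, measured 191 and 203 CPM in Col-0 Mock, 106 and 110.3 CPM in Col-0 Dehydration, 174 and 169 CPM in enap1-1enap2 Mock and 113 and 132 CPM in enap1-1enap2 Dehydration. Its log2 change was -0.87 ± 0.087 (adjusted p = 4.7e-07) in Col-0 and -0.48 ± 0.086 (adjusted p = 1.5e-04) in enap1-1enap2, and passed the fold threshold in Col-0 only under upper quartile scaling (-1.05) and library size alone (-1.05). The interaction of 4CL1 (0.38 ± 0.12, adjusted p = 0.043) was lost without enap1-1enap2 Mock replicate 1 (0.13), enap1-1enap2 Mock replicate 2 (0.17), Col-0 Dehydration replicate 1 (0.14), Col-0 Dehydration replicate 2 (0.082) or enap1-1enap2 Dehydration replicate 2 (0.22), each value being the adjusted p. 4CL2 (AT3G21240) was called in neither genotype, with -0.31 ± 0.089 in Col-0 and 0.02 ± 0.088 in the mutant, and its interaction had an adjusted p of 0.086.

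CHS (AT5G13930) was the member of highest level per exon length in all 4 groups. It measured 1571 and 1714 CPM in Col-0 Mock, 472 and 440.0 CPM in Col-0 Dehydration, 1564 and 1544 CPM in enap1-1enap2 Mock and 745 and 651 CPM in enap1-1enap2 Dehydration. Levels under dehydration were the lower ones in both genotypes, and among them the 2 mutant libraries were above those of Col-0. CHS fell by 1.85 ± 0.10 on the log2 scale in Col-0 (adjusted p = 4.1e-10) and by 1.16 ± 0.10 in enap1-1enap2 (adjusted p = 5.5e-08), and the interaction was 0.69 ± 0.14 (adjusted p = 0.0034). It lies on the plus strand of chromosome 5 (4488476-4490264) and shares 2 of its 1703 exon bases with a gene on the other strand.

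Chalcone isomerase (CHI) closes the ring of the chalcone, and its relative CHIL assists the reaction without being an enzyme of it. CHI (AT3G55120) measured 268 and 302 CPM in Col-0 Mock, 95.3 and 88.8 CPM in Col-0 Dehydration, 235 and 237 CPM in enap1-1enap2 Mock and 137 and 120.3 CPM in enap1-1enap2 Dehydration. It fell by 1.63 in Col-0, and in enap1-1enap2 its change was -0.88 ± 0.090 (adjusted p = 4.2e-07), which passed the fold threshold only under upper quartile scaling and library size alone (-1.04 in both). CHIL (AT5G05270) measured 305 and 323 CPM in Col-0 Mock, 108 and 106 CPM in Col-0 Dehydration, 245 and 240.1 CPM in enap1-1enap2 Mock and 154 and 165 CPM in enap1-1enap2 Dehydration, and fell by 1.56 in Col-0, with -0.61 ± 0.079 in the mutant. In each of the pair the groups did not overlap, and the mutant was below Col-0 under mock and above it under dehydration. The interactions were 0.75 ± 0.13 (adjusted p = 0.0010) for CHI and 0.95 ± 0.11 (adjusted p = 7.1e-05) for CHIL.

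F3'H (AT5G07990), which adds a hydroxyl group to the flavonoid ring and so sets the quercetin and cyanidin series, had the largest interaction of the early flavonoid steps. It measured 93.2 and 103 CPM in Col-0 Mock, 29.6 and 31.6 CPM in Col-0 Dehydration, 89.5 and 91.4 CPM in enap1-1enap2 Mock and 76.0 and 57.2 CPM in enap1-1enap2 Dehydration. The mutant dehydration libraries lay above those of Col-0 and below all 4 mock libraries, and they were the pair that differed most from each other. F3'H fell by 1.68 ± 0.12 in Col-0 (adjusted p = 6.0e-09), its change in enap1-1enap2 was -0.44 ± 0.11 (adjusted p = 0.0025), and the interaction was 1.24 ± 0.16 (adjusted p = 1.3e-04).

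FLS1 (AT5G08640), the enzyme that makes flavonols, measured 595 and 598 CPM in Col-0 Mock, 98.3 and 104 CPM in Col-0 Dehydration, 525 and 527 CPM in enap1-1enap2 Mock and 139 and 140.4 CPM in enap1-1enap2 Dehydration. The replicates were within a few CPM of each other in every group, and FLS1 fell by 2.56 ± 0.085 in Col-0 and 1.91 ± 0.082 in the mutant, with an interaction of 0.65 ± 0.11 (adjusted p = 0.0013). In the order of levels per exon length among the 41 members, it went from place 2 in both mock groups to place 7 in Col-0 Dehydration and place 9 in enap1-1enap2 Dehydration. Of the 5 early flavonoid genes tested, 5 thus fell in Col-0 and 2 in the mutant, against 11.7% and 14.1% of all genes. At an adjusted p under 0.05 alone, 5 of the 5 were lower in the mutant, against 7008 of the 21614 genes tested. The count of 2 thus reflects the fold threshold. The remaining gene of this step, F3H (AT3G51240), was not tested: 1415 of its 1508 exon bases are overlapped by AT3G51238 on the opposite strand, reads were counted without strand, and F3H was left with 0 to 16 counts per library, so its level cannot be read from these counts.

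**Figure D2:**
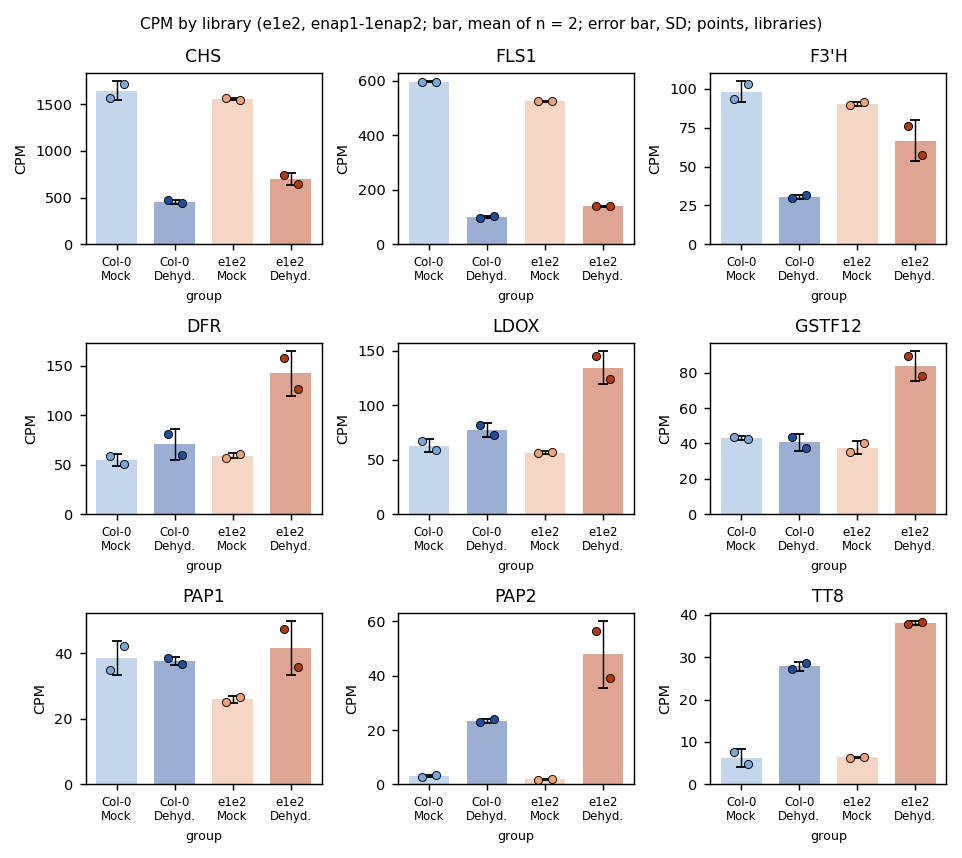
CPM of 9 members in the 4 groups (e1e2 stands for enap1-1enap2), with points for libraries, bars for the mean of the 2 replicates and error bars for the SD. CHS, FLS1 and F3'H are lower in the dehydration libraries, DFR, LDOX and GSTF12 are highest in the 2 enap1-1enap2 Dehydration libraries, and PAP2 and TT8 are higher in all 4 dehydration libraries than in the mock libraries.

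The genes that make, move and decorate anthocyanins differed between the genotypes under dehydration. DFR (AT5G42800), the entry to the anthocyanin branch, measured 59.1 and 50.5 CPM in Col-0 Mock, 81.7 and 59.9 CPM in Col-0 Dehydration, 57.4 and 61.1 CPM in enap1-1enap2 Mock and 158 and 127 CPM in enap1-1enap2 Dehydration. The mutant dehydration libraries were the highest of the 8, whereas those of Col-0 came within the range of mock values in replicate 2. DFR rose by 1.27 ± 0.13 on the log2 scale in enap1-1enap2 (adjusted p = 5.5e-07), its change in Col-0 was 0.37 ± 0.13 (adjusted p = 0.026), and the interaction was 0.90 ± 0.19 (adjusted p = 0.0044).

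LDOX (AT4G22880), which makes the coloured anthocyanidins, measured 67.4 and 58.6 CPM in Col-0 Mock, 81.6 and 72.5 CPM in Col-0 Dehydration, 56.0 and 57.4 CPM in enap1-1enap2 Mock and 145 and 124 CPM in enap1-1enap2 Dehydration. It rose by 1.25 ± 0.10 in enap1-1enap2 (adjusted p = 2.4e-08), with 0.29 ± 0.099 (adjusted p = 0.020) in Col-0 and an interaction of 0.96 ± 0.14 (adjusted p = 3.4e-04). GSTF12 (AT5G17220), a glutathione transferase needed to bring anthocyanins to the vacuole, measured 43.9 and 42.3 CPM in Col-0 Mock, 43.9 and 37.2 CPM in Col-0 Dehydration, 34.9 and 40.3 CPM in enap1-1enap2 Mock and 89.6 and 77.9 CPM in enap1-1enap2 Dehydration. Its 2 Col-0 groups overlapped, and its change there was -0.09 ± 0.11 (adjusted p = 0.49), while it rose by 1.16 ± 0.10 in enap1-1enap2 (adjusted p = 9.7e-08), although upper quartile scaling (0.99) and library size alone (0.99) took it just under the fold threshold. Its interaction, 1.25 ± 0.15 (adjusted p = 7.2e-05), was close to that of F3'H. GSTF12 shares 108 of 1096 exon bases with a gene on the opposite strand, and 4.48% of the 31-base stretches of DFR and 6.72% of those of LDOX occur again in the genome. BAN (AT1G61720), which leads to proanthocyanidins in the seed coat, had 0 to 8 counts per library and was not tested.

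Of the genes that decorate anthocyanins, UGT75C1 and UGT79B1 add sugars, 5MAT adds a malonyl group and SCPL10 a sinapoyl group. UGT75C1 (AT4G14090) measured 23.7 and 23.9 CPM in Col-0 Mock, 26.7 and 23.5 CPM in Col-0 Dehydration, 22.1 and 22.6 CPM in enap1-1enap2 Mock and 50.3 and 40.5 CPM in enap1-1enap2 Dehydration. It rose in enap1-1enap2 (1.03 ± 0.11, adjusted p = 7.8e-07) and its change in Col-0 was 0.08 ± 0.11 (adjusted p = 0.58). The rise fell under the fold threshold without enap1-1enap2 Dehydration replicate 1 (0.85) and with upper quartile scaling (0.86) or library size alone (0.86), and 447 of its 1648 exon bases overlap genes on the opposite strand. UGT79B1 (AT5G54060) measured 26.3 and 23.5 CPM in Col-0 Mock, 30.6 and 25.9 CPM in Col-0 Dehydration, 28.0 and 27.3 CPM in enap1-1enap2 Mock and 62.5 and 41.6 CPM in enap1-1enap2 Dehydration, 5MAT (AT3G29590) 20.4 and 19.0 CPM in Col-0 Mock, 17.6 and 15.1 CPM in Col-0 Dehydration, 19.8 and 18.7 CPM in enap1-1enap2 Mock and 27.0 and 26.5 CPM in enap1-1enap2 Dehydration, and SCPL10 (AT2G23000) 27.7 and 34.4 CPM in Col-0 Mock, 34.2 and 30.4 CPM in Col-0 Dehydration, 27.7 and 29.5 CPM in enap1-1enap2 Mock and 58.2 and 47.1 CPM in enap1-1enap2 Dehydration. In these 3 genes too the mutant dehydration libraries were the highest of the 8. Their changes in the mutant, 0.92 ± 0.15 for UGT79B1, 0.47 ± 0.11 for 5MAT and 0.88 ± 0.12 for SCPL10, had adjusted p of 5.3e-05, 0.0010 and 1.0e-05 without reaching the fold threshold, which UGT79B1 (1.18) and SCPL10 (1.03) passed without enap1-1enap2 Dehydration replicate 2.

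Over the 7 genes of anthocyanin synthesis and transport, 0 were called in Col-0 and 4 rose in enap1-1enap2. Of all genes, 10.0% rose and 11.7% fell in Col-0, and 12.6% and 14.1% in enap1-1enap2. At an adjusted p under 0.05 alone, 3 of the 7 differed in Col-0 (DFR and LDOX higher, 5MAT lower). In enap1-1enap2, 7 of 7 were then higher. Of all 21614 genes tested, 6419 were then higher and 6480 lower in Col-0, and 6958 and 7008 in enap1-1enap2. The interaction was called in 7 of 7, against 8.07% of all genes higher and 8.76% lower. The interaction of the 7 ranged from 0.73 to 1.25 on the log2 scale with a median of 0.90. That of UGT79B1 (0.73 ± 0.21, adjusted p = 0.027) was lost without enap1-1enap2 Mock replicate 1 (0.087), enap1-1enap2 Mock replicate 2 (0.098), Col-0 Dehydration replicate 2 (0.11) or enap1-1enap2 Dehydration replicate 1 (0.14), each the adjusted p. Replicate 1 was higher than replicate 2 for 7 of the 7 genes in Col-0 Dehydration and for 7 of the 7 in enap1-1enap2 Dehydration. In the mock groups it was higher for 5 of the 7 in Col-0 Mock and for 2 of the 7 in enap1-1enap2 Mock.

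The UGT78D enzymes add the sugars of flavonols. UGT78D1 (AT1G30530), a flavonol rhamnosyltransferase, measured 171 and 209 CPM in Col-0 Mock, 35.4 and 29.8 CPM in Col-0 Dehydration, 161 and 156 CPM in enap1-1enap2 Mock and 24.3 and 28.3 CPM in enap1-1enap2 Dehydration. The dehydration libraries of the mutant were below those of Col-0, and UGT78D1 fell by 2.54 ± 0.12 in Col-0 and 2.60 ± 0.12 in the mutant, with an interaction of -0.05 ± 0.16 (adjusted p = 0.86). UGT78D2 (AT5G17050), a glucosyltransferase that acts on flavonols and anthocyanins, measured 177 and 203 CPM in Col-0 Mock, 125 and 115 CPM in Col-0 Dehydration, 152 and 157 CPM in enap1-1enap2 Mock and 153 and 141 CPM in enap1-1enap2 Dehydration. Its change was -0.66 ± 0.089 (adjusted p = 1.0e-05) in Col-0 and -0.07 ± 0.088 (adjusted p = 0.50) in enap1-1enap2, and its interaction was 0.59 ± 0.12 (adjusted p = 0.0046). Per exon length, UGT78D1 made up 44.8 and 46.4% of the 3 genes together in Col-0 Mock, 19.3 and 18.0% in Col-0 Dehydration, 47.1 and 45.7% of them in enap1-1enap2 Mock and 11.8 and 14.5% in enap1-1enap2 Dehydration. UGT78D3 (AT5G17030), an arabinosyltransferase whose gene neighbours UGT78D2 on chromosome 5, had only 8 to 119 counts per library. It was called lower in Col-0 (-1.88 ± 0.52, adjusted p = 0.0059) but not without Col-0 Mock replicate 2 (-1.66, adjusted p = 0.043) or Col-0 Dehydration replicate 2 (-1.38, adjusted p = 0.068).

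**Figure D3:**
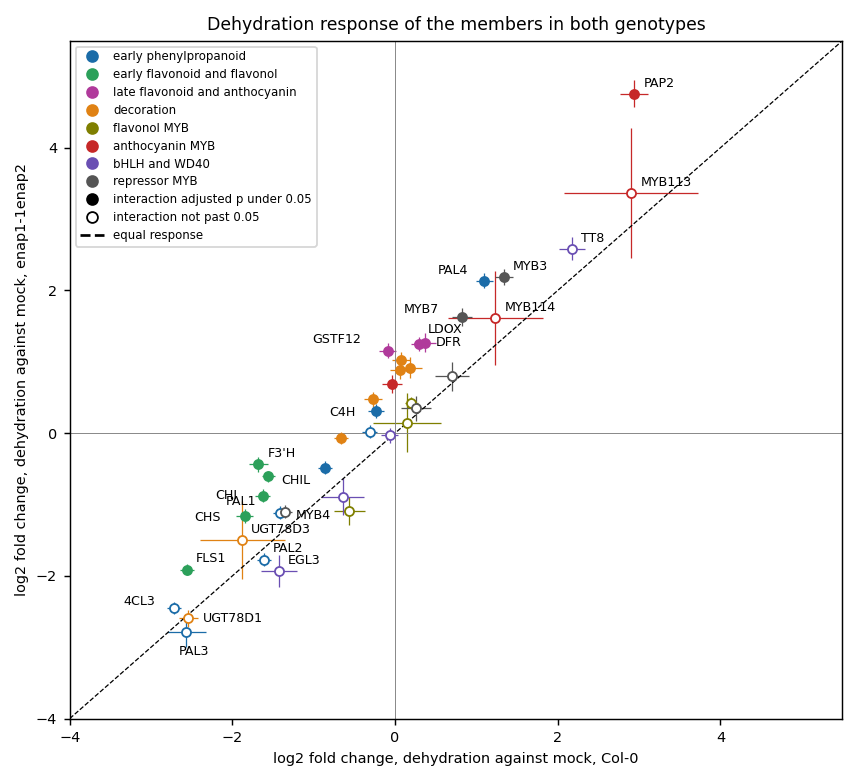
Log2 fold change with dehydration in Col-0 (horizontal axis) and in enap1-1enap2 (vertical axis) for the 39 members tested, coloured by step, with standard errors as bars and a dashed line of equal response. Filled points are the 20 members with a called interaction, and all 20 lie above the line, with PAP2 farthest up.

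Of the 3 activators of the flavonol enzymes, 0 were called in Col-0 and 1 in enap1-1enap2. Of all genes, 10.0% rose and 11.7% fell in Col-0, and 12.6% rose and 14.1% fell in enap1-1enap2, so counts over 3 genes say little. MYB12 (AT2G47460), the one of highest level, measured 47.2 and 47.6 CPM in Col-0 Mock, 52.4 and 56.7 CPM in Col-0 Dehydration, 39.0 and 39.99 CPM in enap1-1enap2 Mock and 52.1 and 53.8 CPM in enap1-1enap2 Dehydration. Its change was 0.20 ± 0.083 (adjusted p = 0.047) in Col-0 and 0.42 ± 0.083 (adjusted p = 3.4e-04) in enap1-1enap2, upward and under the fold threshold in both. MYB111 (AT5G49330) measured 10.08 and 14.6 CPM in Col-0 Mock, 6.76 and 9.93 CPM in Col-0 Dehydration, 14.1 and 13.5 CPM in enap1-1enap2 Mock and 6.41 and 6.51 CPM in enap1-1enap2 Dehydration. It fell in enap1-1enap2 (-1.09 ± 0.19, adjusted p = 1.3e-04), and its change in Col-0, where the groups came closest (10.08 CPM in Mock replicate 1 and 9.93 CPM in Dehydration replicate 2), was -0.56 ± 0.19 (adjusted p = 0.020). MYB11 (AT3G62610) stayed at 1.13 to 2.42 CPM, with 0.14 ± 0.42 and 0.15 ± 0.41. Of the 3 genes, 0 had a called interaction, except that of MYB111 without Col-0 Mock replicate 2 (-0.82, adjusted p = 0.035).

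Of the 4 anthocyanin MYB genes, PAP2 had the largest change of any member. PAP2 (AT1G66390, chromosome 1, 24763941-24765541, plus strand) measured 2.71 and 3.32 CPM in Col-0 Mock, 22.8 and 23.9 CPM in Col-0 Dehydration, 1.73 and 1.83 CPM in enap1-1enap2 Mock and 56.5 and 39.2 CPM in enap1-1enap2 Dehydration. The mock libraries of the mutant were the lowest and its dehydration libraries the highest of the 8, with replicate 1 above replicate 2. PAP2 rose by 2.94 ± 0.17 in Col-0 and, in the mutant, by 4.76 ± 0.19 (adjusted p = 8.3e-10 and 7.4e-12), 7.74-fold and 26.9-fold in mean CPM, and the interaction of 1.81 ± 0.26 (adjusted p = 3.0e-04) was the largest of the 39. In PAP2 11.3% of the 31-base stretches occur again in the genome, so reads from them may have been lost.

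PAP1 (AT1G56650), a close relative of PAP2 on the same chromosome, measured 35.0 and 42.2 CPM in Col-0 Mock, 38.6 and 36.8 CPM in Col-0 Dehydration, 25.1 and 26.8 CPM in enap1-1enap2 Mock and 47.5 and 35.9 CPM in enap1-1enap2 Dehydration. The mutant was below Col-0 under mock, and the 2 Col-0 groups overlapped. The change was -0.03 ± 0.12 (adjusted p = 0.83) in Col-0 and 0.69 ± 0.12 (adjusted p = 1.7e-04) in enap1-1enap2. The interaction, 0.72 ± 0.18 (adjusted p = 0.011), was lost without enap1-1enap2 Mock replicate 1 (0.68, adjusted p = 0.066) or enap1-1enap2 Dehydration replicate 1 (0.51, adjusted p = 0.061).

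MYB113 and MYB114 lie beside PAP2 (24753589-24754761 and 24757298-24758953) and were near the limit of detection. MYB113 (AT1G66370) had 10 and 2 counts in Col-0 Mock, 20 and 30 in Col-0 Dehydration, then 6 and 0 counts in enap1-1enap2 Mock and 40 and 24 in enap1-1enap2 Dehydration. It was called higher in both genotypes (2.90 ± 0.82 and 3.37 ± 0.91), but not in Col-0 without Mock replicate 2 (2.04, adjusted p = 0.063) or Dehydration replicate 2 (2.63, adjusted p = 0.053), nor in the mutant without Mock replicate 2 (2.60, adjusted p = 0.045) or Dehydration replicate 1 (3.21, adjusted p = 0.027), where the unadjusted p was over 0.01. MYB114 (AT1G66380) had 6 to 34 counts and was not called (1.23 ± 0.58 and 1.61 ± 0.66). Per exon length, the share of PAP1 among the 4 genes was 90.7 and 90.6% in Col-0 Mock and 91.5 and 92.3% in enap1-1enap2 Mock, and with dehydration it was 58.2 and 56.2% in Col-0 and 42.4 and 44.4% in the mutant. That of PAP2 went from 7.8 and 7.9% to 38.1 and 40.3% in Col-0 and from 6.96 and 6.98% to 55.8 and 53.6% in the mutant, where it exceeded PAP1.

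The bHLH partners also moved apart. TT8 (AT4G09820, chromosome 4, 6181881-6186523, plus strand) is one of these partners. It measured 7.73 and 4.78 CPM in Col-0 Mock and 27.1 and 28.6 CPM in Col-0 Dehydration. Its levels were 6.29 and 6.41 CPM in enap1-1enap2 Mock and 37.8 and 38.3 CPM in enap1-1enap2 Dehydration. All dehydration libraries were above all mock libraries, and TT8 rose by 2.17 ± 0.16 in Col-0 and, in the mutant, by 2.58 ± 0.16 (adjusted p = 1.4e-08 and 1.4e-09). Its interaction was 0.41 ± 0.23 (adjusted p = 0.24), and it was called only without Col-0 Mock replicate 2 (0.73, adjusted p = 0.0045). EGL3 (AT1G63650) measured 12.4 and 11.1 CPM in Col-0 Mock, 3.16 and 5.52 CPM in Col-0 Dehydration, 9.64 and 11.8 CPM in enap1-1enap2 Mock and 2.74 and 2.88 CPM in enap1-1enap2 Dehydration, and fell by 1.43 ± 0.22 and 1.93 ± 0.22. GL3 (AT5G41315), which with EGL3 also acts in hair cell fate, measured 5.98 and 5.67 CPM in Col-0 Mock, 4.42 and 3.06 CPM in Col-0 Dehydration, 6.90 and 7.78 CPM in enap1-1enap2 Mock and 5.07 and 2.74 CPM in enap1-1enap2 Dehydration, with -0.64 ± 0.27 (adjusted p = 0.048) in Col-0 and -0.89 ± 0.26 (adjusted p = 0.0066) in enap1-1enap2. Per exon length TT8 went from 35.7 and 27.3% of the 3 genes in Col-0 Mock to 82.7 and 81.5% in Col-0 Dehydration, and from 33.5 and 30.2% to 86.6 and 90.0% in the mutant. TTG1 (AT5G24520), the WD40 protein that holds the complex together, lay between 21.4 and 24.7 CPM in all 8 libraries (-0.07 ± 0.10 in Col-0 and -0.03 ± 0.099 in enap1-1enap2).

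**Figure D4:**
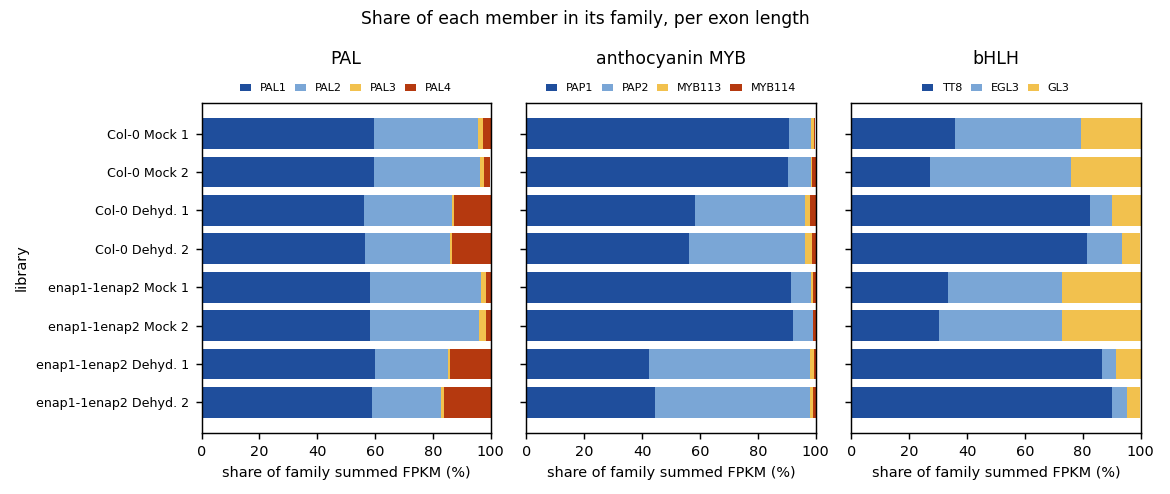
Share of each gene in the summed level per exon length (FPKM, in %) of its family in each of the 8 libraries, for PAL, the anthocyanin MYB genes and the bHLH genes. PAL4, PAP2 and TT8 take larger shares in the 4 dehydration libraries than in the 4 mock libraries, and PAP2 exceeds PAP1 only in enap1-1enap2 Dehydration.

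MYB3, MYB4, MYB7 and MYB32 are related repressors of phenylpropanoid genes, of which MYB4 fell and MYB3 rose in both genotypes. MYB4 (AT4G38620), a repressor of C4H, measured 60.4 and 59.4 CPM in Col-0 Mock, 24.8 and 21.99 CPM in Col-0 Dehydration, 48.04 and 49.1 CPM in enap1-1enap2 Mock and 21.97 and 23.4 CPM in enap1-1enap2 Dehydration, and fell by 1.36 ± 0.092 in Col-0 and 1.10 ± 0.091 in enap1-1enap2. MYB3 (AT1G22640) measured 19.1 and 16.5 CPM in Col-0 Mock, 44.5 and 45.2 CPM in Col-0 Dehydration, 10.8 and 13.3 CPM in enap1-1enap2 Mock and 56.7 and 52.3 CPM in enap1-1enap2 Dehydration. It rose by 1.34 ± 0.11 and 2.19 ± 0.11, with an interaction of 0.85 ± 0.16 (adjusted p = 0.0019), and the mutant was below Col-0 in every mock library and above it in every dehydration library. MYB7 (AT2G16720) measured 10.7 and 11.4 CPM in Col-0 Mock, 20.7 and 18.5 CPM in Col-0 Dehydration, 7.31 and 8.70 CPM in enap1-1enap2 Mock and 24.9 and 24.3 CPM in enap1-1enap2 Dehydration and followed the same order. It rose in enap1-1enap2 (1.63 ± 0.12), had 0.82 ± 0.12 (adjusted p = 2.5e-05) in Col-0, and an interaction of 0.81 ± 0.17 (adjusted p = 0.0047). MYB32 (AT4G34990) had 0.70 ± 0.20 and 0.80 ± 0.20, under the fold threshold except in the mutant without enap1-1enap2 Mock replicate 2 (1.10). MYBL2 (AT1G71030), a small MYB protein that blocks the anthocyanin complex, lay between 6.47 and 10.4 CPM and had 0.26 ± 0.18 and 0.35 ± 0.18. Per exon length, MYB4 made up 55.1 to 57.8% of the 5 repressors in the mock libraries and MYB3 was the highest in every dehydration library, at 41.3 and 43.2% in Col-0 and 44.9 and 43.9% in the mutant.

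Under mock, the genotypes were compared directly. Of the 39 members 0 were called, while 0.389% of all genes were called higher and 0.953% lower in enap1-1enap2. Without the fold threshold, at an adjusted p under 0.05 alone, 7 members were lower and 0 higher, against 3.70% of all genes lower. They were PAL4 (-0.72 ± 0.11), PAP2 (-0.78 ± 0.22), PAP1 (-0.57 ± 0.12), MYB3 (-0.57 ± 0.12), MYB7 (-0.48 ± 0.12), CHIL (-0.37 ± 0.079) and MYB4 (-0.30 ± 0.087). At an unadjusted p under 0.05 there were 16, against 4647 of the 21614 genes tested. DESeq2 called 0 members at the full threshold, against 80 higher and 191 lower among all genes. The median over the 39 members was -0.15, and that over all genes was -0.01.

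Under dehydration, 4 members were called higher in enap1-1enap2 than in Col-0 and 0 lower, while 1.01% of all genes were called higher and 1.40% lower. The 4 were F3'H (1.13 ± 0.12, adjusted p = 1.8e-05), GSTF12 (1.05 ± 0.11, adjusted p = 1.4e-05), PAP2 (1.04 ± 0.15, adjusted p = 2.4e-04) and DFR (1.01 ± 0.13, adjusted p = 1.5e-04). Each was close to the fold threshold, so that without enap1-1enap2 Dehydration replicate 1 there were 0 (F3'H 0.90, GSTF12 0.94, PAP2 0.75 and DFR 0.84, all with an adjusted p of 0.0064 or less), without Col-0 Dehydration replicate 2 there were 2, and without enap1-1enap2 Dehydration replicate 2 there were 6. DESeq2 called 3 higher and 0 lower, against 202 and 321 of all genes. An unadjusted p under 0.05 was found for 22 members, against 6120 of the 21614 genes tested. At an adjusted p under 0.05 alone, 16 members were higher and 0 lower, against 6.56% and 8.14% of all genes. These were 5 of the 5 early flavonoid enzymes tested, the 7 genes of anthocyanin synthesis and transport, and C4H, PAL4, UGT78D2 and PAP2. CHS, for example, was higher by 0.61 ± 0.099 (adjusted p = 7.0e-04) and LDOX by 0.81 ± 0.099 (adjusted p = 7.8e-05). The genotype comparisons use the same libraries as the responses and the interaction, and are not separate evidence.

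**Figure D5:**
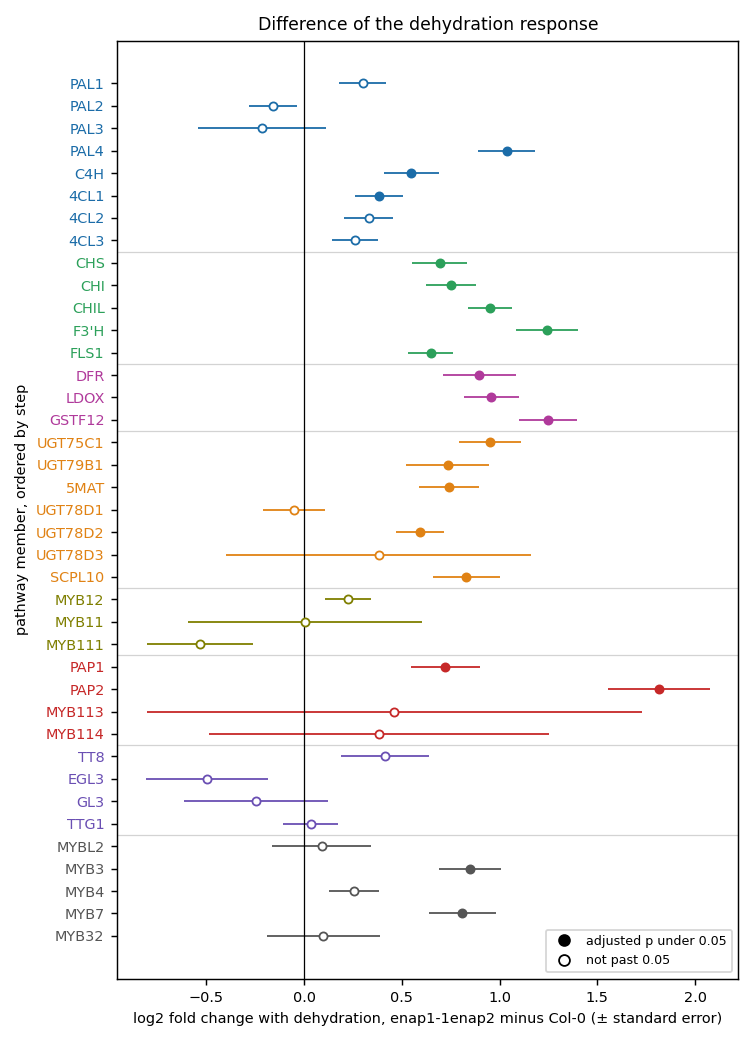
Difference of the log2 fold change with dehydration, enap1-1enap2 minus Col-0 (horizontal axis, with standard errors), for the 39 members tested, ordered and coloured by step. The 20 filled points are those called, from 4CL1 at 0.38 to PAP2 at 1.81, and none of the points below 0 is filled.

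Genes of the pathway outside the 41 were taken from lists of known genes, 48 in all, of which 40 were tested. In Col-0, 4 rose and 4 fell, against 10.0% and 11.7% of all genes tested. In enap1-1enap2, 5 rose and 6 fell, against 12.6% and 14.1% of all genes. The interaction was called higher for 2 and lower for 7, against 8.07% and 8.76% of all genes. In the monolignol and sinapate branch (18 genes), CAD5, an alcohol dehydrogenase of lignin synthesis, measured 89.8 and 96.2 CPM in Col-0 Mock, 339 and 344 CPM in Col-0 Dehydration, 76.7 and 86.8 CPM in enap1-1enap2 Mock and 417 and 355 CPM in enap1-1enap2 Dehydration and rose by 1.88 ± 0.097 and 2.24 ± 0.099, while its relative CAD4 fell by 1.72 and 2.01. UGT72E2, which adds glucose to monolignols, fell by 1.19 in Col-0 and 2.20 in the mutant, with an interaction of -1.01 ± 0.14 (adjusted p = 2.9e-04). CCR2, a reductase of the lignin branch, had an interaction of 0.72 ± 0.19 (adjusted p = 0.016).

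Among 4 tested genes for other decorations, BGLU10, an anthocyanin glucosyltransferase, rose in both genotypes (1.22 ± 0.11 and 1.42 ± 0.11). 3AT1, which adds a coumaroyl group to anthocyanins, measured 27.3 and 24.4 CPM in Col-0 Mock, 34.9 and 36.3 CPM in Col-0 Dehydration, 24.1 and 23.1 CPM in enap1-1enap2 Mock and 54.9 and 48.6 CPM in enap1-1enap2 Dehydration. It rose in enap1-1enap2 (1.13 ± 0.097) with 0.46 ± 0.097 in Col-0 and an interaction of 0.67 ± 0.14 (adjusted p = 0.0038). KFB20, an F-box protein that marks PAL for breakdown, measured 9.19 and 6.85 CPM in Col-0 Mock, 21.4 and 15.6 CPM in Col-0 Dehydration, 11.9 and 11.1 CPM in enap1-1enap2 Mock and 10.96 and 12.9 CPM in enap1-1enap2 Dehydration. It rose in Col-0 (1.21 ± 0.17) and had 0.05 ± 0.17 in enap1-1enap2, with an interaction of -1.16 ± 0.24 (adjusted p = 0.0041). TT12, a transporter of the seed coat, was without a count in Col-0 Mock and had 10 and 18 counts in Col-0 Dehydration. In the mutant it had 2 and 0 counts in enap1-1enap2 Mock and 10 and 6 in enap1-1enap2 Dehydration. With 3 counts put in place of the count in each Mock library, its mean CPM with dehydration was 8.73-fold that of Mock in Col-0. In enap1-1enap2 this ratio was 2.46-fold. Neither ratio is a lower bound, as the error of the dehydration counts was left out and both mates may have been counted.

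Of 11 other regulators tested, the interaction was called lower for 5 and higher for 0, against 8.76% and 8.07% of all genes. LBD37, LBD38 and LBD39 are related repressors of anthocyanin genes that respond to nitrogen. LBD38 measured 41.2 and 52.3 CPM in Col-0 Mock, 18.5 and 17.2 CPM in Col-0 Dehydration, 58.6 and 66.1 CPM in enap1-1enap2 Mock and 10.5 and 8.16 CPM in enap1-1enap2 Dehydration. It fell by 1.39 ± 0.13 in Col-0 and 2.72 ± 0.14 in enap1-1enap2, and the interaction was -1.33 ± 0.19 (adjusted p = 2.7e-04). LBD39 measured 35.3 and 53.1 CPM in Col-0 Mock, 42.6 and 39.7 CPM in Col-0 Dehydration, 59.8 and 56.2 CPM in enap1-1enap2 Mock and 28.3 and 29.4 CPM in enap1-1enap2 Dehydration, fell in the mutant by 1.01 and had -0.11 ± 0.14 in Col-0, with an interaction of -0.90 ± 0.20 (adjusted p = 0.0055). The interactions of LBD37 (-0.92 ± 0.15), of HYH, a light signalling bZIP factor (-0.46 ± 0.14), and of SPA1, a partner of the ubiquitin ligase COP1 (-0.45 ± 0.11), were called lower as well.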

How the data were processed

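RNA-seq was made from 8 libraries of whole seedlings. The authors trimmed the reads with Trim Galore 0.6.7, mapped them to TAIR10 and counted them with featureCounts (Subread 2.0.1) on Araport11 exons, and the deposited values are raw counts with no normalization. Counting ignored strand, so overlapping genes on opposite strands lose reads, and 69.4 to 74.0% of the nonzero counts were even, as when both mates are counted. The counts of a gene are therefore not independent molecules. A floor of 3 counts does not bound the counting error, and does not cover other variation.

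The 41 members were matched by gene code. The members, the other lists and the markers were chosen with earlier results of these data known, and all 41 are accounted for. From other lists up to 3 called genes each were named, and CCR2, LBD37, HYH and SPA1 were named after their values were seen. Counts were analysed with edgeR 4.0.16 in R 4.3.3 (filterByExpr by group, TMM factors, glmQLFit with 1 mean per group over all 8 libraries, glmQLFTest) and, as an alternative, DESeq2 1.42.0. Standard errors were obtained by dividing each log2 fold change by the root of its F statistic. FPKM divide CPM by exon length in kilobases. The scripts were tested on simulated data. Alternatives were other scalings, filters and thresholds, fits on 4 libraries, leaving out each library, and the replicate number as a block. The labels call the replicates biological, and p-values measure only the spread between these libraries. Sequences came from RefSeq TAIR10.1, where all 41 members have the same start and end. Figures were drawn with matplotlib 3.10.9 in Python 3.11.15.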

Additional observations from a re-analysis of the deposited data

Results flagged for a closer look

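For 20 members the response to dehydration differed between the genotypes by a test of the difference itself (the interaction in edgeR's quasi-likelihood test, adjusted p under 0.05), always with the higher log2 fold change in enap1-1enap2. In the early phenylpropanoid steps, the differences on the log2 scale were 1.04 for PAL4, 0.547 for C4H and 0.383 for 4CL1. In the early flavonoid steps they were 0.693 for CHS, 0.751 for CHI, 0.950 for CHIL, 1.24 for F3'H and 0.647 for FLS1. For anthocyanin synthesis and transport they were 0.897 for DFR, 0.957 for LDOX, 1.25 for GSTF12, 0.949 for UGT75C1, 0.734 for UGT79B1, 0.741 for 5MAT and 0.829 for SCPL10, and for UGT78D2 the difference was 0.592. Among the regulators they were 0.722 for PAP1, 1.81 for PAP2, 0.849 for MYB3 and 0.809 for MYB7. With 2 libraries in each group, no group was large enough to test for a library that stands apart in a member.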

How the results depend on the processing

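Of 62 calls on members, at the thresholds of the report, 48 held under every other scaling, filter, tool, set of libraries and block in which the gene was tested, 14 were lost in at least 1 of these, and none of the 62 changed sign. Of 85 member values with an adjusted p of 0.05 or more that were called in none of these, 41 changed sign in at least 1. Other thresholds moved more calls. With an adjusted p under 0.05 and no minimum fold change, 29 members were called in Col-0 (10 higher), 34 in enap1-1enap2 (18 higher, 16 lower), 7 between genotypes under mock (7 lower) and 16 under dehydration (16 higher). Of all 21614 genes tested, 6419 were then higher and 6480 lower in Col-0, and 6958 and 7008 in enap1-1enap2. Between genotypes the counts over all genes were 751 and 799 under mock and 1417 and 1759 under dehydration. With a log2 fold change over 1.5, the counts were 3 higher and 10 lower in Col-0, 12 in enap1-1enap2 (6 higher, 6 lower) and 0 between genotypes under dehydration. Over all genes these were 1232 and 1546 in Col-0, 1536 and 1799 in enap1-1enap2, and 73 and 124 between genotypes under dehydration. With a log2 difference over 1, 4 interactions were left (4 higher), against 545 higher and 413 lower over all genes. Leaving out each library in turn gave 15 to 18 calls in Col-0 (3 to 5 higher, 12 to 13 lower), 19 to 22 in enap1-1enap2 (8 to 12 higher, 10 to 11 lower), 16 to 24 interactions (16 to 23 higher, 0 to 1 lower), 0 under mock and 0 to 6 under dehydration (0 to 6 higher). The lone library of a group was then assumed to vary like the others. The replicate block left 5 higher and 13 lower in Col-0, 10 and 10 in enap1-1enap2, 20 and 0 interactions, 0 under mock and 4 higher under dehydration, and it changed no call on a member. Whether libraries with the same number were grown together is not stated, and their deviations from the group means had correlations of -0.0629 to 0.0762 over genes. The interaction was not fitted on 4 libraries, as it needs all 4 groups. Depth limits MYB113, MYB114, UGT78D3 and MYB11, which had few counts.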
